A study of Homo sapiens with 4 samples.

Results

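A set of 45 protein-coding genes of ATP-binding cassette (ABC) subfamilies A to G was examined in HepG2 cells, a cell line grown from a human hepatocellular carcinoma. The genes were chosen by symbol alone, as every protein-coding row whose GENCODE symbol was ABC, a subfamily letter from A to G and a number. This rule leaves out ABC genes named otherwise, such as TAP1, TAP2 and CFTR. The set made up 45 of the 61906 gene rows of the table, of which 19999 were protein-coding. The study asked how ligand binding to G-quadruplexes (G4s), structures that guanine-rich DNA can fold into, affects chromatin loops and gene expression. Poly(A) RNA was sequenced from wild-type cells that were mock-treated, or treated with 20 µM PDS for 24 h, with 2 biological replicates per group. PDS (pyridostatin) is a small molecule that binds G4s. Both groups were 1 tumour-derived line, and 2 libraries per group limit the precision of every value below.

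ABC proteins bind and hydrolyse ATP, and most of them use the energy to move a substrate across a membrane. In the liver, members in the canalicular membrane, which faces the bile, export bile salts, phospholipid, sterols, bilirubin conjugates and drugs, and others load cholesterol onto lipoproteins or serve peroxisomes, lysosomes and mitochondria. Subfamilies E and F have no membrane-spanning part and act on ribosomes and translation.

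The libraries held 30408397 to 39217670 recovered reads in the mock group and 15573166 to 19647907 in the PDS group. Transcripts of the mitochondrial genome took 14.5% to 15.3% of the TPM, a length-corrected share of each library's reads, in mock libraries and 36.4% to 36.5% after PDS. In TPM as deposited the median gene was lower after PDS, by 0.55 on the log2 scale, and changes below are given relative to that median gene unless stated otherwise: dividing a library by its median-of-ratios factor gave what is called scaled TPM. Of 10 hepatocyte markers all were measured at 1 TPM or more. Their levels summed to 46123 and 49538 TPM in the mock libraries and 41736 and 40445 TPM in the PDS libraries. Relative to the median gene 7 rose and 2 fell, where 16.2% and 13% of all tested genes did. In TPM as deposited 2 rose and 5 fell, and after quantile normalization 3 and 6, so their direction depended on the scaling. Of other cell types 1 of 5 fibroblast, 2 of 4 endothelial, 2 of 5 leukocyte and 0 of 4 erythroid markers averaged 1 TPM or more. These were LYZ at 5876 to 7206 TPM, PDGFRB at 11.6 to 20.2 TPM and CD14, PECAM1 and CDH5 at under 5 TPM, whereas the pan-leukocyte gene PTPRC was at 0.0732 TPM or less. Depth, the mitochondrial share and these markers moved with the treatment, and their part in the results below was not tested beyond the scalings given.

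Testing was limited to genes that averaged 1 TPM or more across mock and PDS libraries, which left 28 of the 45 members. Their levels spanned from ABCA5, at 1.79 and 1.75 TPM in the mock libraries, to ABCF1 at 127 and 137 TPM and ABCC2 at 136 and 125 TPM. The mock ranges of ABCF1 and ABCC2 overlapped, so their order was not settled. Within the mock libraries ABCE1, ABCD3, ABCC1 and ABCB10 ranked below ABCF1 and ABCC2, the ranges of ABCD3 and ABCC1 overlapping. Of the 27 neighbouring pairs in the whole order 9 had overlapping mock ranges and 8 had overlapping PDS ranges. The 45 genes summed to 846 and 860 TPM in mock libraries and to 459 and 445 TPM in PDS libraries. With TPM rescaled to the transcripts from outside the mitochondrial genome alone, the sums were 999 and 1006 against 722 and 700.

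**Figure D1:**
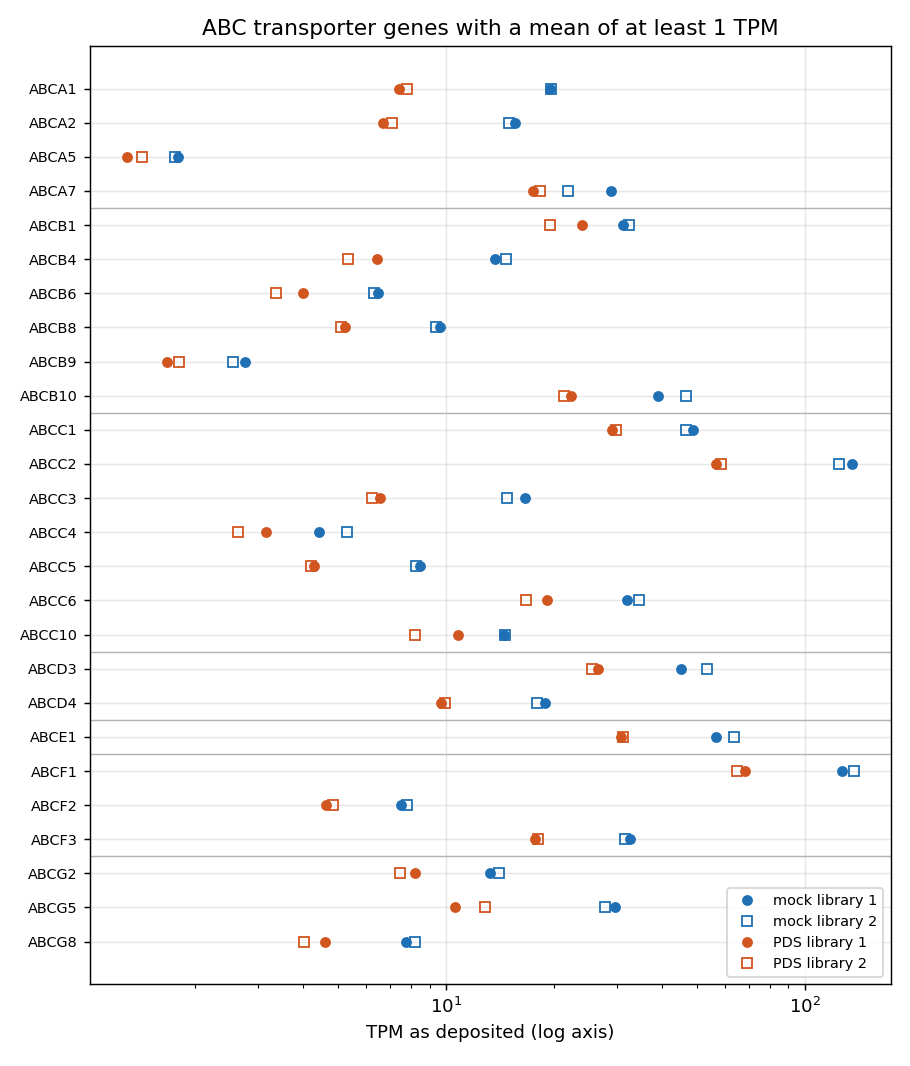
Level of 26 tested ABC genes in TPM as deposited, on a log axis, with 1 symbol per library (blue, mock; orange, PDS; filled circle, replicate 1; open square, replicate 2) and lines between subfamilies A to G. In this unit both PDS libraries lie below both mock libraries for all 26 genes shown, as they did for 82.1% of the 14686 tested genes.

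The other 17 members had means of 0.0418 to 0.791 TPM and never exceeded 0.966 TPM in a library. They were ABCA3, ABCA4, ABCA6, ABCA8, ABCA9, ABCA10, ABCA12, ABCA13, ABCB5, ABCB11, ABCC8, ABCC9, ABCC11, ABCC12, ABCD2, ABCG1 and ABCG4, and 13 of them had under 30 reads in every library. No direction was read from these genes. The group holds the bile salt export pump ABCB11, at 8 and 6 reads in mock libraries and 2 and 3 after PDS, and the sterol exporters ABCG1 and ABCG4, as well as the potassium channel subunits ABCC8 and ABCC9.

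Relative to the median gene, 8 of the 28 tested members fell after PDS and none rose (limma with Benjamini-Hochberg adjustment over all 14686 tested genes, threshold 0.05). Over all tested genes 13% were lower and 16.2% higher, 1906 and 2377 genes, or 29.2% in either direction. The members that fell were ABCA1, ABCG5, ABCC3, ABCB4, ABCC2, ABCA2, ABCF1 and ABCE1, with log2 fold changes from -0.67 to -0.30. The median over the 28 was -0.20, with 22 below 0, against 0.00 over all tested genes. Both PDS libraries lay below both mock libraries in scaled TPM for 18 members and above them for 1, ABCA5, where the shares over all tested genes were 35.6% and 35.2%. A bulk measurement of this kind cannot tell fewer expressing cells from less RNA per cell.

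How many members were called depended on the scaling and on single libraries. Scaled to the genes outside the mitochondrial genome, which puts the median gene at -0.19, 19 members were lower (33.2% of all tested genes) and 0 higher (7.95%), and in TPM as deposited 27 were lower (71.8%) and 0 higher (2.58%). Over all tested genes the same scalings called 4877 lower and 1168 higher, and 10538 lower and 379 higher. No member and no gene was called by limma without mock replicate 1 or without mock replicate 2, when 11 and 10 members, respectively, had an unadjusted p under 0.05. Without PDS replicate 1 the calls of ABCA1 and ABCB4 were kept (4.73% of all tested genes lower), and without PDS replicate 2 those of ABCA1, ABCA2, ABCB4, ABCC2 and ABCG5 (6.21%). All 8 log2 fold changes were below 0 in each of the 13 alternatives tried, but in most of these the sign could not turn. The 8 genes had both PDS libraries below both mock libraries in scaled TPM, so leaving out a library keeps the sign. The filters and the replicate block leave the estimate unchanged. The shared sign is therefore no separate support.

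**Figure D2:**
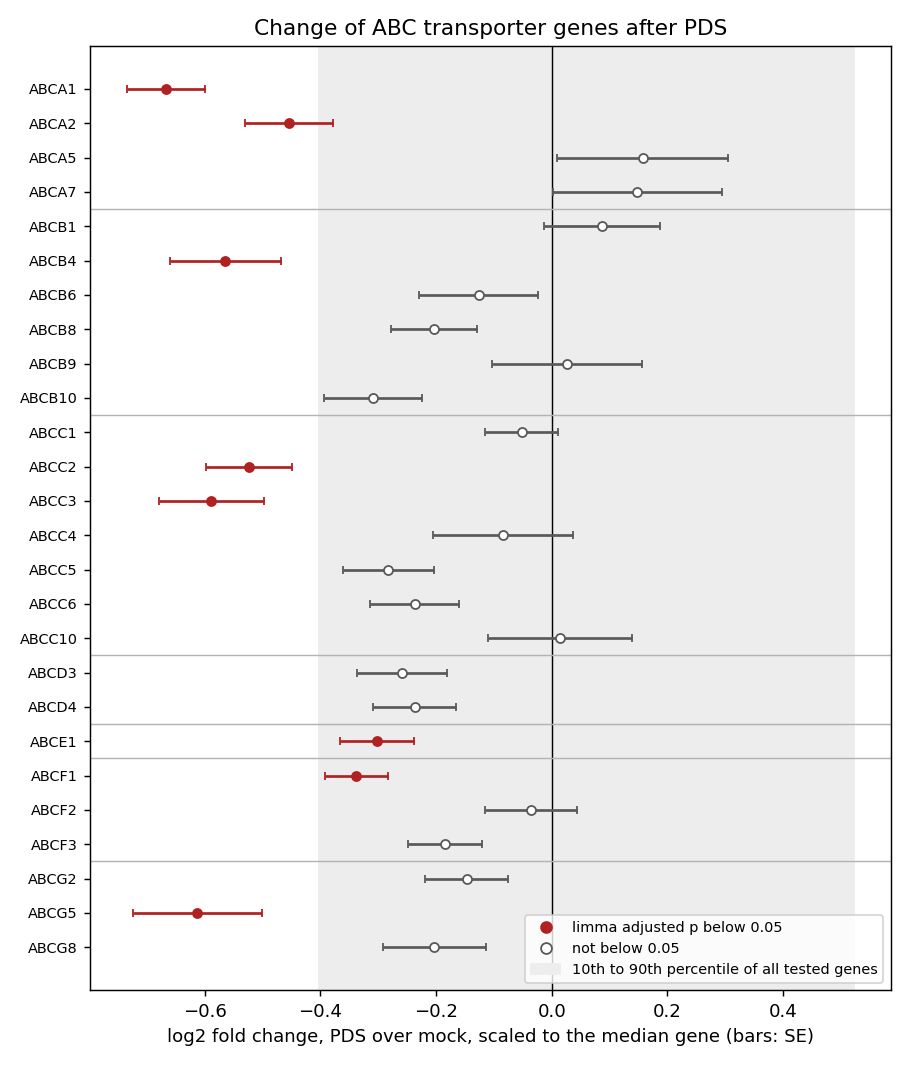
Log2 fold change (PDS over mock, relative to the median gene) of 26 tested ABC genes, ordered by subfamily, with its SE as bars. Red symbols mark the 8 genes with a limma adjusted p below 0.05, from ABCA1 at -0.67 to ABCE1 at -0.30, and the grey band spans the 10th to 90th percentile of all 14686 tested genes, from -0.40 to 0.52.

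Of the 3 tested sterol exporters, ABCA1 and ABCG5 fell and ABCG8 did not pass the test (13% of all tested genes were lower). ABCA1 transfers cholesterol and phospholipid from the cell to APOA1, the first step in forming high-density lipoprotein (HDL). It measured 15.9 and 15.4 scaled TPM in the mock libraries and 9.18 and 9.81 after PDS. The groups were far apart relative to the gap between replicates. The log2 fold change was -0.67 ± 0.07 (SE), or 0.63-fold in scaled TPM + 1, with limma adjusted p = 0.00701. ABCA1 ranked 14th among the members in mock cells and 17th after PDS, by TPM.

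The ABCA1 gene lies on chromosome 9, 104781006 to 104928155, on the minus strand of GRCh38. Its promoter was examined because it was the only one of the 6 available promoters of fallen members with a G4 motif. The motif was defined as 4 runs of GGG with 1 to 7 letters between runs, on either strand. The stretch of 120 bases before its RefSeq start site, chr9:104928156-104928275 on the minus strand of GRCh38.p14, is shown with capitals at TATAAA, which begins 31 bases before the start, and at TGACC and TAACC with 5 letters between, which begin 69 bases before it. The latter stretch covers most of a pair of receptor elements of the kind that liver X receptors (LXR) bind with RXR. The full elements reach past TGACC and TAACC, so the 5 letters between these are not the spacing of the pair. These letters were picked from the ABCA1 sequence itself, so their presence is no finding.
ABCA1: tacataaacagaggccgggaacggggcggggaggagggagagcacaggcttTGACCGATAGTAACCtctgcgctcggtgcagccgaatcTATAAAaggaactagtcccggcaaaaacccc
A match of letters is a description of the sequence, and no binding was measured at it.

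ABCG5 and ABCG8 form a heterodimer that pumps cholesterol and plant sterols into bile. ABCG5 measured 23.9 and 21.8 scaled TPM in mock libraries and 13.2 and 16.2 after PDS, a log2 fold change of -0.61 ± 0.11 (limma adjusted p = 0.0192). ABCG8 measured 6.27 and 6.44 against 5.72 and 5.07 scaled TPM, without overlap as well, but its log2 fold change of -0.20 ± 0.09 did not pass the test (limma adjusted p = 0.15). Within a library the ratio of ABCG5 to ABCG8, which does not depend on scaling, was 3.82 and 3.39 in mock cells and 2.30 and 3.19 after PDS. The second PDS library lay closer to the mock libraries than to its own replicate, and an exact permutation test of 2 against 2 cannot give a p below 0.333, so a difference between the partners was not shown.

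The partners lie head to head on chromosome 2, ABCG5 on the minus strand (43812472 to 43838865) and ABCG8 on the plus strand (43831942 to 43882988). Their RefSeq start sites are 131 bases apart, and the interval between them, chr2:43838840-43838970 in GRCh38.p14, is shown whole on the plus strand because both genes start from its ends.
ABCG5-ABCG8: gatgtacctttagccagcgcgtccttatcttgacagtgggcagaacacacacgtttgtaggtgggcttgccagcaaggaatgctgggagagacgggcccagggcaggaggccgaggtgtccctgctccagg
It holds 60.3% G and C and 5 CpG pairs, and neither gene's promoter window held the G4 motif or GGGCGG. In GENCODE the exons of the pair overlap by 137 bases on opposite strands, 3.68% of the exon length of ABCG5, so a small part of either count could come from its partner if strand was not used.

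Among the 6 tested members of the canalicular membrane, 3 fell, namely ABCB4, ABCC2 and ABCG5, and the median log2 fold change was -0.36 (-0.25 with the exon length trend removed); over all tested genes 13% were lower, and all 3 calls were lost when mock replicate 1 or mock replicate 2 was left out. ABCB4 moves phosphatidylcholine into bile. It measured 11.1 and 11.6 scaled TPM in mock cells and 7.98 and 6.74 after PDS, and its log2 fold change was -0.56 ± 0.10 (limma adjusted p = 0.0167). ABCC2, which exports bilirubin glucuronides and other conjugates, measured 110 and 97.9 scaled TPM against 70.1 and 73.6, a log2 fold change of -0.52 ± 0.07 (limma adjusted p = 0.0116). For both genes the higher PDS library stayed well below the lower mock library. ABCG2, the breast cancer resistance protein, was at 10.8 and 11.1 scaled TPM against 10.1 and 9.39, with a log2 fold change of -0.15 ± 0.07 that did not pass the test (limma adjusted p = 0.184).

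ABCB1 (P-glycoprotein) is the neighbour of ABCB4 on chromosome 7, on the same strand, and transports a wide range of drugs. Its scaled TPM of 25.3 and 25.4 in mock cells overlapped with 29.7 and 24.5 after PDS, and its log2 fold change was 0.09 ± 0.10 (limma adjusted p = 0.546), or -0.13 when scaled to the genes outside the mitochondrial genome and -0.54 in TPM as deposited. In every library ABCB1 was the more abundant of the pair. The ratio of ABCB4 to ABCB1 was 0.438 and 0.456 in mock libraries and 0.269 and 0.275 in PDS libraries. Replicates differed by far less than the groups in this ratio, which was 1 of 9 ratios computed after the values had been seen, and p = 0.333 is the smallest that its exact permutation test allows.

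**Figure D3:**
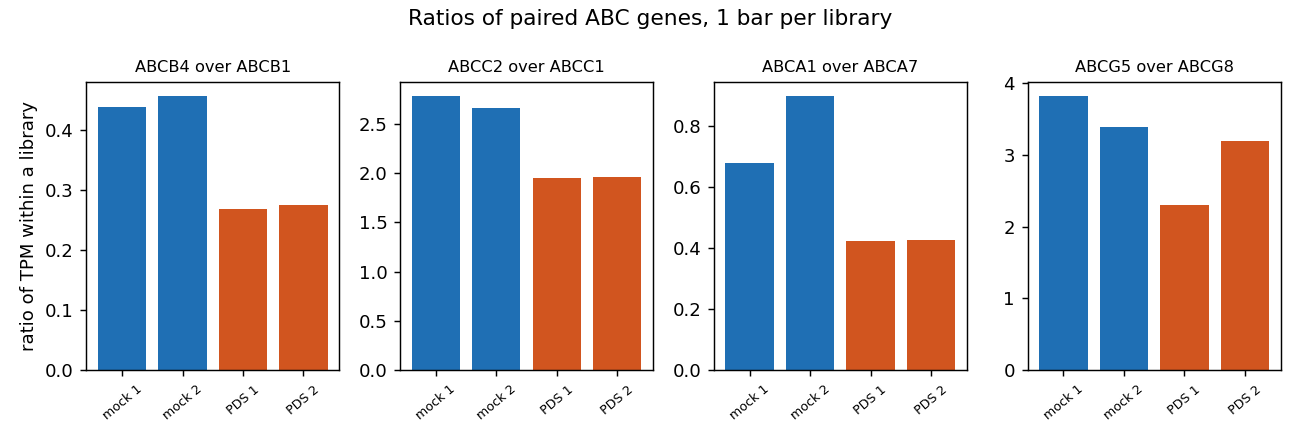
Ratio of TPM between paired ABC genes within each library, 1 bar per library (blue, mock; orange, PDS), for ABCB4 over ABCB1, ABCC2 over ABCC1, ABCA1 over ABCA7 and ABCG5 over ABCG8. The ratios do not depend on scaling between libraries; that of ABCB4 to ABCB1 was 0.438 and 0.456 in mock and 0.269 and 0.275 in PDS libraries, and the spread of ABCG5 over ABCG8 between the PDS libraries, 2.30 and 3.19, was the widest relative to its level.

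Of the 8 tested drug and organic anion exporters, 2 fell, ABCC2 and ABCC3, where 13% of all tested genes were lower. The median of the 8 was -0.12 (-0.03 with the exon length trend removed). ABCC3, which exports conjugates across the basolateral membrane towards the blood, measured 13.5 and 11.6 scaled TPM in mock and 8.14 and 7.86 in PDS libraries, a log2 fold change of -0.59 ± 0.09 (limma adjusted p = 0.0141). ABCC1, a broadly expressed exporter of glutathione conjugates, overlapped between the groups at 39.5 and 36.8 against 36.0 and 37.5 scaled TPM (-0.05 ± 0.06, limma adjusted p = 0.569). Against ABCC1 within each library, ABCC2 went from ratios of 2.78 and 2.66 to 1.95 and 1.96, and ABCC3 from 0.342 and 0.316 to 0.226 and 0.210. The ratio of ABCC2 to ABCC3 was 8.14 and 8.42 in mock and 8.62 and 9.35 in PDS libraries. Both PDS libraries lay above both mock libraries. The gap between the nearest libraries of the groups was smaller than the gap between replicates in either group. A change of this ratio was therefore not shown.

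ABCC2 took 49.5% and 47.6% of the summed TPM of the 9 exporters in mock libraries and 39.5% and 42.7% after PDS. The share of ABCC1 went from 17.8% and 17.9% to 20.3% and 21.7%, and that of ABCB1 from 11.4% and 12.4% to 16.7% and 14.2%. ABCC2 was thus the largest of the exporters in all 4 libraries. ABCC5, an exporter of cyclic nucleotides, lay just outside the threshold at -0.28 ± 0.08 (limma adjusted p = 0.052), with 6.86 and 6.49 scaled TPM against 5.32 and 5.29. ABCC4, which exports cyclic nucleotides and bile acids, was at 3.60 and 4.17 against 3.90 and 3.31 scaled TPM. ABCC4 and ABCC10 overlapped between the groups, with log2 fold changes of -0.08 and 0.01, the latter -0.19 when scaled to the genes outside the mitochondrial genome and -0.58 in TPM as deposited. ABCC10 was at 11.8 and 11.5 against 13.4 and 10.3 scaled TPM, and its PDS replicates lay on either side of the mock ones.

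ABCC6, which mediates ATP release from hepatocytes, measured 26.0 and 27.2 against 23.7 and 21.1 scaled TPM and did not pass the test (-0.24 ± 0.08, limma adjusted p = 0.0766). It has near-identical pseudogene copies, so its counts are uncertain. The copies were abundant in the same table, with ABCC6P1 at 28.0, 29.9, 15.0 and 16.6 TPM and ABCC6P2 at 15.1, 15.9, 10.8 and 9.86 TPM in mock replicates 1 and 2 and PDS replicates 1 and 2.

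In subfamily A, whose members move lipids, 2 of the 4 tested genes fell (13% of all tested genes were lower). Besides ABCA1 this was ABCA2, a lipid transporter of endosomes and lysosomes, at 12.6 and 11.8 scaled TPM in mock and 8.30 and 8.95 in PDS libraries, with a log2 fold change of -0.45 ± 0.08 (limma adjusted p = 0.0162). ABCA7, a phospholipid transporter related in sequence to ABCA1, was at 23.4 and 17.2 against 21.7 and 23.0 scaled TPM. Its mock replicates spanned both PDS libraries, and its log2 fold change was 0.15 ± 0.15, or -0.07 when scaled to the genes outside the mitochondrial genome and -0.47 in TPM as deposited. ABCA5, at 1.45 and 1.38 against 1.60 and 1.79 scaled TPM, had the highest estimate of the family at 0.16 ± 0.15 (limma adjusted p = 0.46), at only 105 to 144 reads in the PDS libraries, and turned to -0.24 in TPM as deposited and -0.01 after quantile normalization.

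In the peroxisomal membrane ABCD3, which imports branched-chain and dicarboxylic acyl-CoA and bile acid precursors, was at 36.8 and 41.9 against 33.0 and 32.3 scaled TPM. Both PDS libraries lay below both mock libraries, but the log2 fold change of -0.26 ± 0.08 did not pass the test (limma adjusted p = 0.0646). ABCD2 was below 1 TPM.

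ABCD4, which helps cobalamin leave the lysosome, was at 15.3 and 14.1 against 12.0 and 12.6 scaled TPM (-0.24 ± 0.07, limma adjusted p = 0.0653). ABCB9, a lysosomal peptide transporter, overlapped between groups at 2.23 and 1.996 against 2.06 and 2.27 scaled TPM (0.03 ± 0.13, but -0.13 when scaled to the genes outside the mitochondrial genome, -0.08 after quantile normalization and -0.41 in TPM as deposited), and 24.6% of its exon bases are shared with genes on the opposite strand, so its level is uncertain.

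The mitochondrial members ABCB6, ABCB8 and ABCB10 did not pass the test with limma, while the unadjusted p was under 0.05 for 2 of them, ABCB10 and ABCB8. ABCB10, which takes part in haem synthesis, missed the threshold narrowly at 31.6 and 36.6 against 27.7 and 26.9 scaled TPM (-0.31 ± 0.08, limma adjusted p = 0.0502). ABCB8 was at 7.79 and 7.37 against 6.48 and 6.42 scaled TPM (-0.20 ± 0.07), without overlap between groups. ABCB6, linked to porphyrin transport, overlapped at 5.26 and 4.95 against 4.96 and 4.24 scaled TPM (-0.13 ± 0.10) and shares 54.6% of its exon bases with another protein-coding annotation on its strand, so that its counts are uncertain.

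Of the 4 soluble members, all tested, ABCE1 and ABCF1 fell (13% of all tested genes were lower). ABCE1 splits ribosomes after termination, and measured 46.0 and 49.98 scaled TPM in mock and 38.2 and 39.2 in PDS libraries (-0.30 ± 0.06, limma adjusted p = 0.0275). ABCF1, which binds ribosomes and the initiation factor eIF2, measured 103 and 108 against 84.5 and 81.9 scaled TPM (-0.34 ± 0.05, limma adjusted p = 0.0153). These were the smallest of the called changes, in genes with small spreads between replicates, and the ratio of ABCE1 to ABCF1 overlapped between the groups at 0.446 and 0.463 against 0.452 and 0.479. ABCF3 was at 26.5 and 24.8 against 22.0 and 22.8 scaled TPM (-0.19 ± 0.06, limma adjusted p = 0.0884). ABCF2 overlapped at 6.09 and 6.10 against 5.74 and 6.11 scaled TPM (-0.04 ± 0.08). It shares 37.1% of its exon bases with a readthrough gene on its strand, listed at 0 in every library. How reads shared between the 2 genes were counted is not known, so the counts of ABCF2 are uncertain.

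By subfamily, the called members were 2 of 4 in A, 1 of 7 in B, 2 of 7 in C and 0 of 3 in D. The single E member was called, and 1 of 3 in F and 1 of 3 in G. Over all tested genes 13% were lower, and with so few genes per subfamily these counts cannot be told apart from that share. The subfamily medians ranged from -0.15 in A to -0.30 in E, with E a single gene. Medians by role were -0.61 in sterol export (3 tested), -0.36 at the canalicular membrane (6), -0.24 in the soluble members (4), -0.12 in drug efflux (8), -0.11 in the lysosome (2) and 0.15 in the other lipid transporters of subfamily A (3), the last of these -0.07 when scaled to the genes outside the mitochondrial genome, -0.01 after quantile normalization and -0.47 in TPM as deposited. With the exon length trend removed the role medians were -0.51, -0.25, -0.19, -0.03, 0.05 and 0.29, in the same order. These groups share members and are small, and no test between them was made.

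The members are long genes, with a median exon length of 7782.5 bases against 4192 for all tested genes. With the trend of each library on exon length removed, an alternative chosen after seeing the data, 7 members were lower (9.73% of all tested genes), with ABCE1 no longer called. The median over the 28 went from -0.20 to -0.12, and the number of members with an unadjusted p under 0.05 from 15 to 9. ABCC1, ABCC4 and ABCF2 turned to 0.07, 0.04 and 0.00268.

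**Figure D4:**
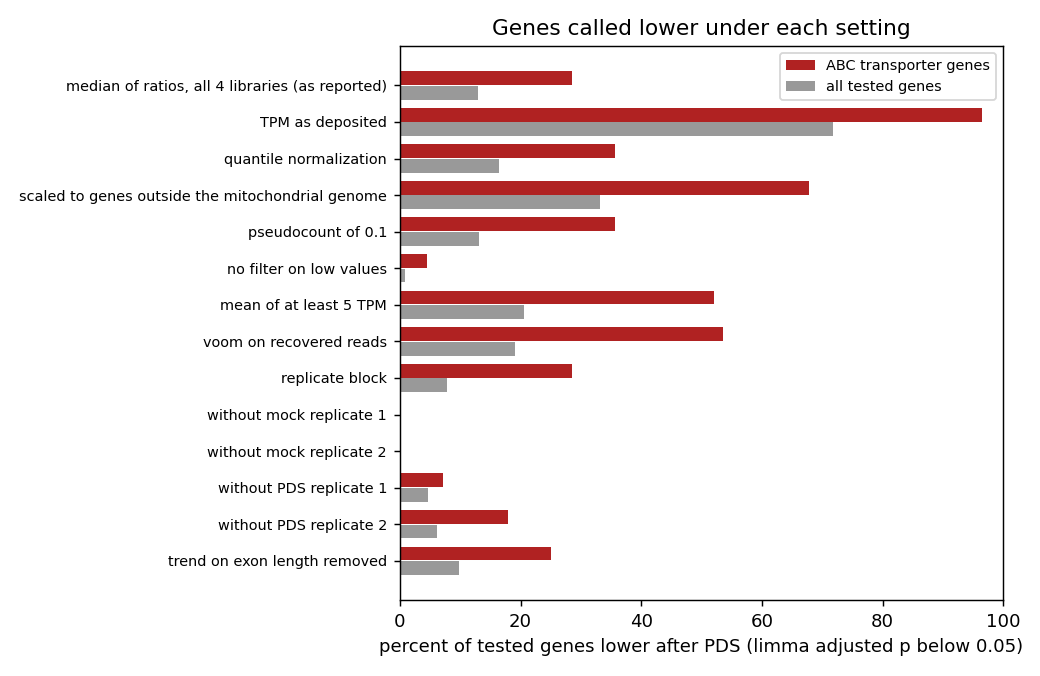
Percent of tested genes called lower after PDS (limma adjusted p below 0.05) under each setting, for ABC transporter genes (red) and all tested genes (grey). With all 4 libraries 28.6% of tested members and 13% of all tested genes were lower, in TPM as deposited 96.4% and 71.8%, and without either mock library none.

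G4 motifs were searched in the RefSeq promoters, 250 bases before to 50 bases after the start, of the 35 members with an entry, which left out, among others, ABCA4, ABCA8, ABCB4, ABCB5, ABCC1, ABCC3, ABCC8 and ABCG1. In 7 of the 35 (20%) the window held one, against 24.86% of all 35116 promoters. All 7 were tested members, 7 of 23 (30.4%), against 33.62% of the 13228 promoters of tested protein-coding genes. Of the 6 fallen members with an entry only ABCA1 held the motif, and the other 6 carriers, ABCB6, ABCB8, ABCB9, ABCB10, ABCC6 and ABCF3, did not pass the test. GGGCGG was present in 18 of the 35 (51.43%), against 44.95% of all promoters, and in 14 of the 23 tested members (60.9%), against 66.68% for tested protein-coding genes. The 4 motifs shown let their runs of G (capitals) be compared between the fallen carrier and 3 others, each read 5′ to 3′ on the G-rich strand of GRCh38.p14. They lie at chr9:104928357-104928394 (plus strand), chr16:16223672-16223702 (plus), chr3:184186137-184186157 (plus) and chr7:151028419-151028442 (plus), in the order given.
ABCA1: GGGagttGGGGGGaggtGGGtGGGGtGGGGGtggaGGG
ABCC6: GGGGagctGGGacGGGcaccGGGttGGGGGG
ABCF3: GGGGGcaGGGcGGGGGGcGGG
ABCB8: GGGGGttgtcGGGatGGGGGcGGG
The ABCA1 motif shown ends 202 bases before the start and has 6 runs of G, and a second ABCA1 motif, of 4 runs on the gene strand, lies from 104 to 83 bases before the start, within the stretch printed above. The ABCC6 motif has 5 runs and ends 178 bases before the start, and those of ABCF3 and ABCB8 have 4 runs and end 42 and 8 bases before it. Whether any of them folds in these cells was not measured here.

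Other genes of the same pathways were counted by list, to be read against 13% lower and 16.2% higher over all tested genes, against 33.2% and 7.95% when scaled to the genes outside the mitochondrial genome, and against 71.8% and 2.58% in TPM as deposited. Without mock replicate 1, or without mock replicate 2, no gene of these lists was called, and without PDS replicates 1 and 2 in turn the regulators had 0 and 1 lower, the LXR targets 2 and 4 higher, and the iron-sulfur and haem genes 3 and 4 higher. The regulators of hepatic ABC genes, mostly nuclear receptors, had 6 of 13 tested genes lower and 2 higher, among them the fatty acid receptor PPARA at -0.56 and the repressor NR0B2 at 0.55 (-0.09 in TPM as deposited). In TPM as deposited 12 were lower and 0 higher, scaled to the genes outside the mitochondrial genome 8 and 1, and 3 were lower with the exon length trend removed. The replicate block, for which the numbers are not taken as pairs, left 2 lower. The uptake carriers and other bile acid and anion carriers had 2 of 6 lower and 1 higher, with SLC22A7 at -0.58 and the bile acid exporter subunit SLC51B at 0.36 (limma adjusted p = 0.0499), or -0.27 in TPM as deposited. No carrier was higher after quantile normalization, under the other scalings, under the replicate block or with the exon length trend removed.

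Of the 8 tested targets of LXR outside the family, 5 were higher and 1 lower relative to the median gene, from the apolipoprotein APOC1 at 0.74 to MYLIP, a ligase that degrades the LDL receptor, at -0.54. Scaled to the genes outside the mitochondrial genome the counts were 2 higher and 2 lower, after quantile normalization 2 and 1, and in TPM as deposited 0 and 5. HDL and plasma cholesterol genes had 5 of 14 higher and 0 lower, including APOA1, the acceptor of the cholesterol that ABCA1 exports, at 0.73 (-0.60 after quantile normalization) and STARD4 at 0.74. Some genes are in more than 1 list, so the counts are not separate observations. APOE, called higher, is also among the LXR targets. APOA1 is also a hepatocyte marker, as is HNF4A of the regulators, called lower. Scaled to the genes outside the mitochondrial genome 3 were higher and 2 lower, after quantile normalization 2 and 2, and in TPM as deposited 0 and 9.

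Peroxisomal genes had 4 of 22 lower and 1 higher, with the beta-oxidation enzymes EHHADH at -0.75 and HSD17B4 at -0.42. Scaled to the genes outside the mitochondrial genome 12 were lower and in TPM as deposited all 22, with 0 higher under both. Iron-sulfur and haem genes, which work in part in mitochondria, had 6 of 23 higher and 2 lower, with the iron carrier SLC25A28 at 0.58 and ALAS1, the first enzyme of haem synthesis, at 0.50, which were -0.03 and -0.14 in TPM as deposited. There the counts were 0 higher and 19 lower, and scaled to the genes outside the mitochondrial genome 2 and 7.

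Cobalamin genes had 3 of 8 higher and 2 lower, with MMAB at 0.79 and MTR, methionine synthase, at -0.55. Scaled to the genes outside the mitochondrial genome 2 were higher and 3 lower, and in TPM as deposited 0 and 6. Termination, recycling and ABCF partner genes had 1 of 14 higher and 2 lower, with GCN1 at -0.48 and the termination factor ETF1 at 0.23, or -0.41 in TPM as deposited. Scaled to the genes outside the mitochondrial genome 8 were lower and in TPM as deposited all 14, with 0 higher under both. Of the antigen peptide transporter pair, ABC genes named outside the family's scheme, TAP1 was higher at 0.32 (-0.31 in TPM as deposited) and TAP2 was at -0.40 with limma adjusted p = 0.0515.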

How the data were processed

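Poly(A) RNA-seq libraries of mock-treated and PDS-treated HepG2 cells (2 each) were read from 1 table. Per the study's methods and the submitters' processing notes, reads were aligned to GRCh38 with STAR 2.7.0 and counted with featureCounts 2.0.3; for strand use, reads shared between genes and the annotation file, the sources used here give no setting. The authors deposited the values as a TPM signal per gene, divided by gene length and scaled to a common library total. Columns of group averages and 2 unnamed total rows were not used, nor were 2 repeated identifiers. Each column was matched to its sample by name. Of 61906 identifiers 61757 matched GENCODE 44 without regard to version, and symbols and gene types were taken from this match. In identifier and version 59984 (96.9%) matched, including all 45 members.

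Median-of-ratios factors (1.23, 1.27, 0.806 and 0.793) scaled the libraries, and log2(scaled TPM + 1) was tested with limma 3.58.1 in R 4.3.3 (trended variance, two-sided, Benjamini-Hochberg over all genes averaging 1 TPM or more, threshold 0.05). The fold changes are on the log2(value + 1) scale and understate changes of low genes. Multiplying TPM by exon length gave whole reads, within 0.05, for at least 99.89% of values of up to 1000 reads per library; these recovered reads gave the depths and entered limma's voom fit as an alternative, which called 5458 genes. Scripts were tested on simulated data. Promoter sequences came from RefSeq (GRCh38.p14).

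Tested members were named, except 2 that are not reported here singly but count in the sums, medians and numbers called; of other lists, up to 4 genes past the threshold with the largest change, or the 2 most abundant where none passed. The members and lists were chosen with earlier results of these data known. Ratios and the removal of the exon length trend were chosen after seeing the data. Alternatives were other scalings, a pseudocount of 0.1, no filter or a mean of at least 5 TPM, recovered reads, a replicate block and leaving out each library. No tests over the members as a set were made. The labels' replicates are called biological in the series' design, without naming separate cultures, so p-values may reflect technical spread alone.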

Additional observations from a re-analysis of the deposited data

How the results depend on the processing

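Of 28 tested members 8 were called, all lower. The count was 27 in TPM as deposited, 19 scaled to genes outside the mitochondrial genome, 2 of 45 with no filter on low values (0.866% of all genes lower), 13 of 25 at a mean of at least 5 TPM (20.5%) and 15 with voom on recovered reads (19%); quantile normalization and a pseudocount of 0.1 gave 10 each and removal of the exon length trend 7. Leaving out 1 library gave 0 to 5 members and 0 to 2412 genes, with 0 at either mock library, when 4621 and 4094 genes had an unadjusted p under 0.05 with limma. Over all genes 4283 were called, against 10917 in TPM as deposited and 1237 with no filter. With the replicate number as a block, 8 members and 2817 genes were called; same-numbered libraries did not deviate together (correlation -0.03 over 14686 genes and -0.12 over the 7383 with a mean of at least 10 TPM), so the numbers are not taken as pairs. The cause of these differences was not tested.

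Members near 0 changed sign. In TPM as deposited ABCA5 was at -0.24, ABCA7 -0.47, ABCB1 -0.54, ABCB9 -0.41 and ABCC10 -0.58, and of other genes TAP1 -0.31, SLC51B -0.27, NR0B2 -0.094, ALAS1 -0.14, SLC25A28 -0.025 and ETF1 -0.41. After quantile normalization ABCA5 was at -0.015, ABCB9 -0.083 and APOA1 -0.60. Scaled to genes outside the mitochondrial genome ABCA7 was at -0.068, ABCB1 -0.13, ABCB9 -0.13 and ABCC10 -0.19. Without the exon length trend ABCC1 was at 0.074, ABCC4 0.040 and ABCF2 0.00268, and with voom ABCC10 was at -0.00251. Leaving out 1 library at a time, ABCA7 ranged from -0.061 to 0.358, ABCB1 from -0.047 to 0.220, ABCB9 from -0.027 to 0.081, ABCC10 from -0.157 to 0.185, ABCC4 from -0.176 to 0.00741 and ABCF2 from -0.074 to 0.00240.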

Other observations

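Gene copies outside the 45 members were expressed as well. Relative to the median gene the pseudogene ABCC6P1 was at a log2 fold change of -0.22 (limma adjusted p = 0.0939) and ABCC6P2 at 0.05 (limma adjusted p = 0.581), neither past the threshold. The pseudogenes ABCA11P and ABCA15P were at 0.637 to 1.21 TPM and 0.613 to 1.31 TPM, with 11 to 32 and 12 to 43 reads per library, and no direction was read from them.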
